A study of Homo sapiens with 10 samples.

Results

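The genes described here are 9 that are tied to the spread of breast cancer to bone and lung: PTHLH, CXCR4, PTGS2, ANGPTL4, TNC, VCAM1, IL13RA2, SPP1 and FSCN1. They were chosen by name for their known roles, when earlier results of these data were already known. They are 9 of the 20098 protein-coding genes on chromosomes 1 to 22 and X of the GENCODE v44lift37 annotation. The cells were MDAMB231, an established human breast cancer line from ATCC, grown in DMEM with 5% FBS and given no treatment. H3K4me1, H3K4me3 and H3K27Ac were profiled by ChIP-seq, which recovers DNA bound to a modified histone, and open chromatin by FAIRE-seq, which recovers DNA free of nucleosomes after fixation in 1% formaldehyde. Each of these 4 assays had 2 samples, ChIP and FAIRE had 1 input sample each, and the authors combined the samples into 1 list of peaks per assay. The lists therefore carry no error between replicates, and the depth of the samples is not given in them.

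Many of these genes drew attention because descendants of MDAMB231 that were selected in mice for growth in bone or lung express them at higher levels than the parental line. The parental line is the one measured here, and no such descendant was analysed here. H3K4me3 is typical of active or potentially active promoters, H3K27Ac of active promoters and enhancers, and H3K4me1 of enhancers whether active or not, while FAIRE shows where nucleosomes are depleted. A peak list records where a mark or open site was called and not how much RNA a gene makes.

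A promoter was any base within 1 kb of an annotated start site of the gene. The promoter was called marked when it shared at least 1 base with an H3K4me3 or H3K27Ac peak, primed when it met neither of these but met an H3K4me1 or FAIRE peak, and bare when no peak of the 4 lists met it. By this rule 8 of the 9 genes were marked, 0 were primed and 1, IL13RA2, was bare. Over all coding genes 69.5% were marked, 1.19% primed and 29.3% bare, so a marked promoter was the usual state in this line, and no test was made for the 9 genes. An H3K4me3 peak met the promoters of 6 genes (67.3% of all coding genes), H3K27Ac those of 7 (63.5%), H3K4me1 those of 4 (20%) and FAIRE those of 5 (39.3%).

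The 8 marked genes were not alike. PTGS2, ANGPTL4 and FSCN1 had H3K4me3, H3K27Ac and FAIRE without H3K4me1, a set found at 23.5% of coding genes. TNC had all 4 (13.1%), and PTHLH had H3K4me3, H3K27Ac and H3K4me1 without FAIRE (4.58%). CXCR4 had H3K4me3 alone (4.95%). VCAM1 had H3K27Ac, H3K4me1 and FAIRE without H3K4me3 (0.985%), and SPP1 had H3K27Ac and H3K4me1 alone (0.453%). A set is counted over all start sites of a gene: at SPP1, 10 start sites had H3K4me1 alone, 3 others had H3K27Ac alone and none had both.

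**Figure D1:**
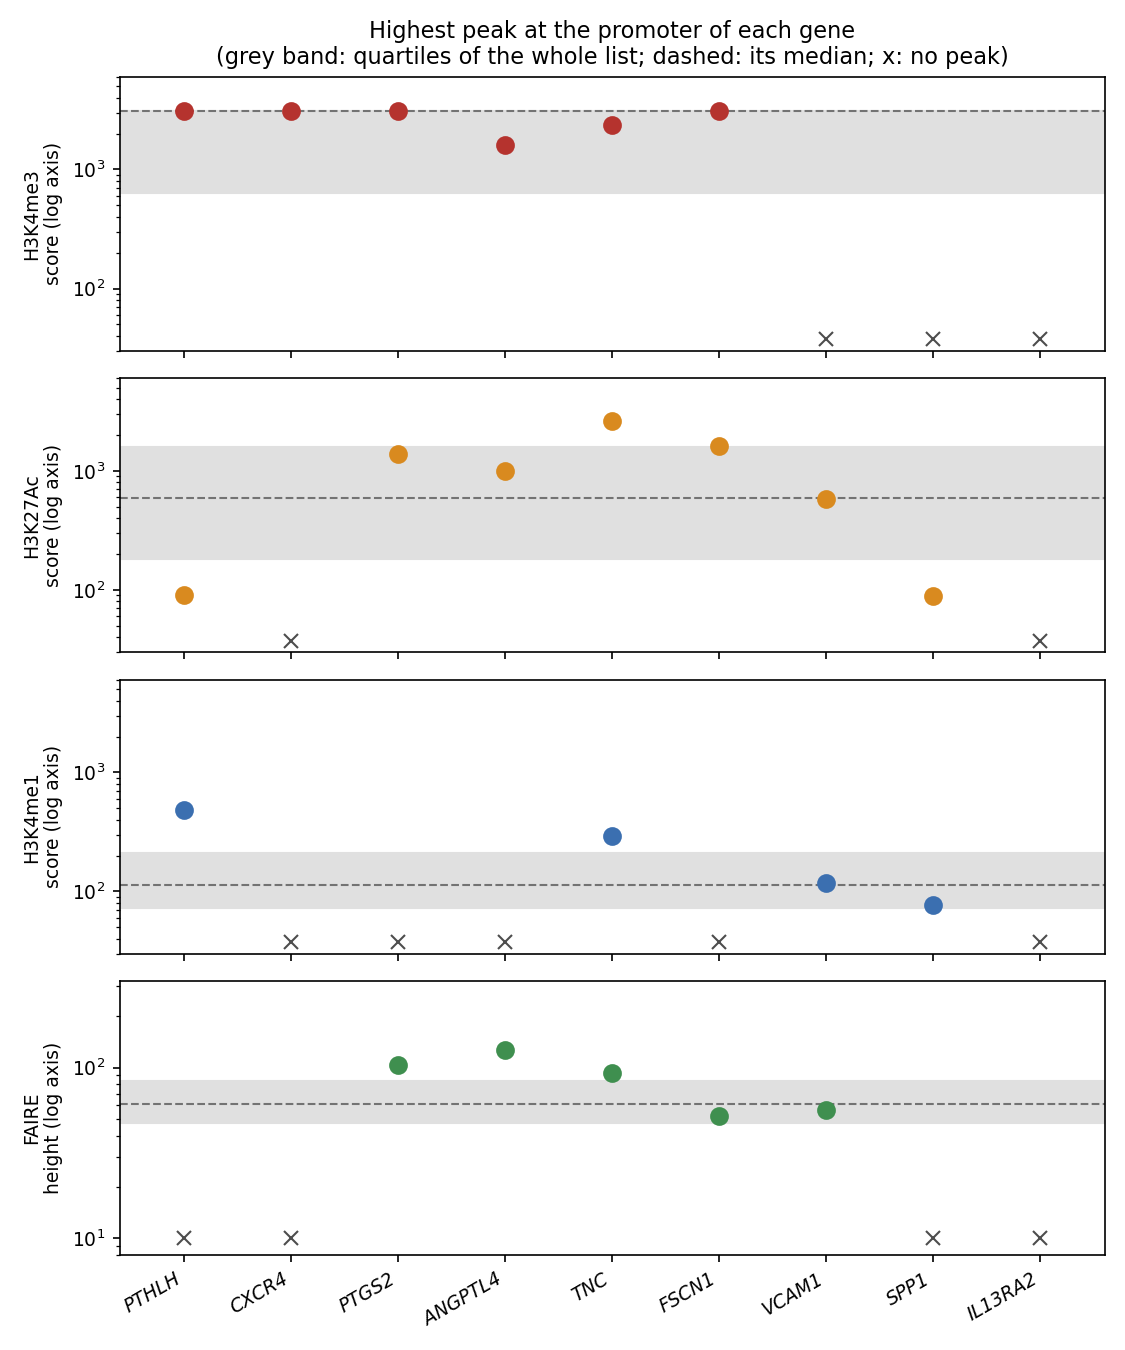
The highest peak of each list at the promoter of each gene, with the deposited score or height on a log axis, the quartiles of the whole list as a grey band and its median as a dashed line. Crosses stand for genes with no peak at the promoter; CXCR4 has a cross in 3 of the 4 panels and IL13RA2 in all 4.

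The state depended on which start site was read. The annotation gives 67 start sites for the 9 genes, of which 41 were marked, 11 primed and 15 bare. TNC has 15 of these sites and SPP1 13. Of the 11 primed sites, 10 were at SPP1, where all met the same H3K4me1 peak, so they are not independent. Over the 146299 start sites of all coding genes, 54.4% were marked, 1.49% primed and 44.1% bare. When the start of the Ensembl canonical transcript of each gene was used alone, a setting chosen after seeing the data, 5 genes were marked, 1 (SPP1) was primed and 3 (PTHLH, VCAM1 and IL13RA2) were bare. Over the 19819 coding genes with a canonical start, 66.5% were marked, 0.737% primed and 32.8% bare. At that site 5 of the 9 genes had H3K4me3 (65.1% of coding genes), 4 had H3K27Ac (60.2%), 2 had H3K4me1 (12.5%) and 3 had FAIRE (31.8%). The genes marked at both readings were CXCR4, PTGS2, ANGPTL4, TNC and FSCN1.

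Sequences of promoters were taken from a table of RefSeq promoters, from 250 bases before to 50 after the start, for the 7 genes with an entry. IL13RA2 and FSCN1 had no entry in that table, which does not mean that RefSeq lacks them. The table is on GRCh38.p14, and each entry was located in GRCh37, the build of the peaks, by its single exact match. The letters searched on both strands were TATAAA (the TATA box), TGANTCA (AP-1), GGAATG (TEAD) and ACGTG (the hypoxia response core), where N is any base. For NF-kB they were 3 guanines, 2 bases of any kind, 1 thymine, 2 bases of any kind and 2 cytosines, called loose here, and a strict form in which the latter pair of free bases are thymines, so that every strict match is also a loose one. Over all 35116 promoters of the table, TATAAA was found in 11.5%, TGANTCA in 7.71%, GGAATG in 14%, ACGTG in 21.4%, the loose NF-kB letters in 22% and the strict ones in 1.91%. A match describes the letters and does not show that a factor binds there. The 4 promoters printed were picked to show different states: VCAM1 (chr1:101185048-101185347, plus strand) met no peak, CXCR4 (chr2:136875670-136875969, minus strand) met H3K4me3 alone, ANGPTL4 (chr19:8428789-8429088, plus strand) met H3K4me3 and H3K27Ac, and PTGS2 (chr1:186649506-186649805, minus strand) met both of these and FAIRE. Capitals mark TATAAA in all 4, the loose NF-kB letters in VCAM1, PTGS2 and ANGPTL4, and ACGTG in PTGS2 and ANGPTL4, each on either strand, and neighbouring or overlapping matches run together.
VCAM1 promoter: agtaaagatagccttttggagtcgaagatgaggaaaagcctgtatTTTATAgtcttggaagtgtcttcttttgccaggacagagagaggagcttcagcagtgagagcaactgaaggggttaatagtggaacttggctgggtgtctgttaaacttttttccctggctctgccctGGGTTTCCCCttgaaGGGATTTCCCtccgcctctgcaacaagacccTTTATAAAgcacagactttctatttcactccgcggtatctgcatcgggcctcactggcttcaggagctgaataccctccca
CXCR4 promoter: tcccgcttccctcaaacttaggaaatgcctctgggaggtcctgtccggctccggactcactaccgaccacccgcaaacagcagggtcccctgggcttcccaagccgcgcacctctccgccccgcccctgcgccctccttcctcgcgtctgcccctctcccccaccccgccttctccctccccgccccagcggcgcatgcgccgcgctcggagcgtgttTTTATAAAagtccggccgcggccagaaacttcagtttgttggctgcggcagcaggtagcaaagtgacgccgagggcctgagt
ANGPTL4 promoter: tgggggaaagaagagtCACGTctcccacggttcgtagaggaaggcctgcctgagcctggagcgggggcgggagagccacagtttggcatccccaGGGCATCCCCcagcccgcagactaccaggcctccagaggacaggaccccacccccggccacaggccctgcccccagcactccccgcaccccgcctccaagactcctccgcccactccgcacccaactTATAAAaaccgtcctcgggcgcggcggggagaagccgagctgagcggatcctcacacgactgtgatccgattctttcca
PTGS2 promoter: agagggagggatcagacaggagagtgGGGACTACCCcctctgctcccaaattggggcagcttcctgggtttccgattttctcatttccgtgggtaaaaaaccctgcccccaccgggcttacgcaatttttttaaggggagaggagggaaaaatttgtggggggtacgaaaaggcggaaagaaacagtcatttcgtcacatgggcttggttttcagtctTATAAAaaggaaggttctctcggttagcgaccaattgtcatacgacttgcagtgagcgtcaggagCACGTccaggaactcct

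VCAM1 held 2 matches to the loose NF-kB letters close to each other and 3 to TATAAA, and no peak of any list met these 300 bases. TATAAA was found in the RefSeq promoters of 4 of the 7 genes, the loose NF-kB letters in 3 and ACGTG in 2, counting the most upstream entry of CXCR4, which has 3. In these 7 stretches TGANTCA, the strict NF-kB letters and GGAATG were not found.

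The same letters were searched in the 300 bases around the centre of FAIRE peaks. TGANTCA was found at 25 of the 44 FAIRE peaks in the windows of the 9 genes, which are the gene bounds widened by 50 kb (56.8%), and at 39.2% of the 46536 FAIRE peaks on these chromosomes. Of the 44, 19 lie around TNC, so they are not independent. GGAATG was found at 13 (29.5%, and 21.4% of all), TATAAA at 10 (22.7% and 19.5%), the loose NF-kB letters at 8 (18.2% and 12.6%), ACGTG at 6 (13.6% and 17.0%) and the strict NF-kB letters at 2 (4.55% and 1.72%). The stretches at the centres of the FAIRE peaks around ANGPTL4 (chr19:8420351-8420650), PTHLH (chr12:28119921-28120220) and TNC (chr9:117926814-117927113) and of the lone FAIRE peak near IL13RA2 (chrX:114257673-114257972) are given on the plus strand of GRCh37, with TGANTCA on either strand in capitals. They are the tallest FAIRE peaks of those windows and were picked, after their values were seen, among the 6 of 9 such peaks that hold TGANTCA. The tallest FAIRE peaks around VCAM1, PTGS2 and SPP1 hold none at their centre. Of the 4 stretches printed, that of PTHLH lies in an intron of the gene and the other 3 lie upstream of theirs, outside any coding gene.
ANGPTL4 upstream element: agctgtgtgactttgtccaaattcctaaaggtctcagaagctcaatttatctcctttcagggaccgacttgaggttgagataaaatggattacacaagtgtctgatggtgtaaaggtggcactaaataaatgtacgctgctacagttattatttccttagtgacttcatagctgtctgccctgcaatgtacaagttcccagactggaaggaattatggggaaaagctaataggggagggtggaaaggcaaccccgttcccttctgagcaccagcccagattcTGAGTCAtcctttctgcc
PTHLH intronic element: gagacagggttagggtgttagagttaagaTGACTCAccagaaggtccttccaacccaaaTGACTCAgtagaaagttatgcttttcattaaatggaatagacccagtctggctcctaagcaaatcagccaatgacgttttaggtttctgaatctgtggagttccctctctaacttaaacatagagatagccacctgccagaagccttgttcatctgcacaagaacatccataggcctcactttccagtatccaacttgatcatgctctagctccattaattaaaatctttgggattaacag
TNC upstream element: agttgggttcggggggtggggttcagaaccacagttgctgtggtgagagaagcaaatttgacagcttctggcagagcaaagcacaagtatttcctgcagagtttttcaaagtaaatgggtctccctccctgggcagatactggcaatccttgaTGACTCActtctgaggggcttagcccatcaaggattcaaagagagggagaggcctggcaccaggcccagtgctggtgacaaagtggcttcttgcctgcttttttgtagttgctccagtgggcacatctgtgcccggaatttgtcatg
IL13RA2 upstream element: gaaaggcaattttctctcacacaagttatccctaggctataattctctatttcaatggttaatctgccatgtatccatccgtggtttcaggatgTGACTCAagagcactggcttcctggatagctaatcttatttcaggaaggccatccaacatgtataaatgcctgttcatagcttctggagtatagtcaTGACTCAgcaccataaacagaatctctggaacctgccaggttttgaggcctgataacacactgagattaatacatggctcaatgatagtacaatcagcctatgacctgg

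Among the secreted factors, PTHLH encodes parathyroid hormone-related protein, which drives bone resorption through osteoblasts and osteoclasts. Of its 9 start sites, 8 were marked. An H3K4me3 peak at chr12:28121612-28124219 reached a score of 3100. The score of a histone peak is minus 10 times the log10 of its MACS p-value, the lowest in the lists is about 50, and values pile up at 3100, which 56.8% of the H3K4me3 list reach or pass. The canonical start of PTHLH, the most upstream, lay 1447 bp outside that peak, whereas the RefSeq start at 28122909 lay within it. H3K27Ac over the same stretch had a low score, 90.5, lower than all but 11.4% of its list.

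A higher H3K27Ac score was found further into PTHLH. The peak there, at chr12:28117740-28121091, had a score of 545, and inside it a FAIRE peak at chr12:28119595-28120548 had a height of 149, above 97.9% of the FAIRE list. Height is the signal of a FAIRE peak as the authors' caller gave it, with a median of 61.1 over the list. An H3K4me1 peak of 6950 bp with a score of 480, at chr12:28117438-28124387, spanned this element and 6 of the 8 marked start sites, the other 2 being marked through the 1 kb around them. The centre of the FAIRE peak was 2.36 kb from the nearest start site and held 2 matches to TGANTCA. Upstream, a FAIRE peak of 63.0 centred 9.36 kb from the start met H3K27Ac (144) and H3K4me1 (133). The highest H3K27Ac score of the window, 1319, was at chr12:28175215-28178022, centred 51.0 kb away and with an H3K4me1 peak (315) that reaches over the edge of the window.

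PTGS2 encodes cyclooxygenase-2, the inducible enzyme of prostaglandin synthesis. Its H3K4me3 peak at chr1:186648702-186651460 had a score of 3100, its H3K27Ac peak at chr1:186648730-186651994 a score of 1382 and its FAIRE peak at chr1:186648929-186650004 a height of 103, above 87.0% of the list. All 3 covered the canonical start. Little else was found around the gene: apart from a small H3K4me3 peak of 62.7 that borders the main one, the window held an H3K4me3 peak with a score of 77.0 at 22.5 kb from the nearest start, and no H3K4me1 peak. H3K4me1 came no closer to the canonical start than 82055 bp. PTGS2 was thus an open and acetylated promoter with no H3K4me1 around it. The noncoding gene PACERR, chosen after its values were seen, starts under the same peaks, and the lists cannot tell its promoter from that of PTGS2.

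ANGPTL4 encodes a secreted inhibitor of lipoprotein lipase that also loosens contacts between endothelial cells. The promoter carried H3K4me3 (1614) at chr19:8428015-8430359 and H3K27Ac (993) over 6998 bp, more than 95.6% of the widths in its list. The FAIRE peak of the promoter, with a height of 126, came within 1 kb of 3 of the 8 start sites and ended 1282 bp from the canonical one. An open element lay further upstream at chr19:8419816-8421186, where the FAIRE height of 195 was above 99.9% of the list, and it sat in an H3K27Ac peak with a score of 1433. Its centre was 7.67 kb from the nearest start site of ANGPTL4 and in no coding gene. Of the 9 genes, this was the tallest FAIRE peak in any window.

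The ANGPTL4 window was crowded. It held 7 H3K4me3 peaks, or 6.30 per 100 kb, more than 97.2% of coding genes, but 5 of these met promoters of other coding genes: KANK3 with 2, RAB11B and MARCHF2 with 1 each, and 1 shared by NDUFA7, RPS28 and ENSG00000167774. The highest H3K4me3 and H3K27Ac scores of the window, 3100 and 1638, were at the promoter shared by NDUFA7, RPS28 and ENSG00000167774, centred 41.5 kb and 41.6 kb away (chr19:8384834-8388555 and chr19:8384780-8388327; 3 H3K4me3 peaks tie at 3100). No H3K4me1 peak was found in the window, as for 59.5% of the 1480 coding genes of chromosome 19.

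SPP1 encodes osteopontin, a secreted bone matrix protein that binds integrins and CD44. Its marked state rested on a low-scoring peak. The canonical start met an H3K4me1 peak with a score of 76.6 and no other peak. An H3K27Ac peak with a score of 89.2, at chr4:88899646-88901147, lay within 1 kb of 3 start sites inside the gene, which belong to transcripts with a retained intron or with no defined coding sequence. With start sites of protein-coding transcripts alone SPP1 was primed, and with histone peaks of MACS p at or under 1e-10 it was bare.

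The SPP1 window held 6 H3K4me1 peaks, or 5.56 per 100 kb, a density above that of 99.3% of coding genes. Most of them scored low: with a MACS p at or under 1e-10 a single peak of the 6 was left, and 3 of the 6 lay at the promoter or in the body of PKD2. Elements centred 13.4 kb and 25.3 kb upstream of the nearest start had H3K4me1 (76.7 and 95.6) and FAIRE (45.1 and 57.1) without H3K27Ac, and a FAIRE peak of 62.8 lay 2.04 kb upstream with no histone peak. On the other side, the highest value of each list in the window lay in or at PKD2. At its promoter was the H3K4me3 peak of 3100, at chr4:88927872-88930811 and 28.8 kb from the nearest start of SPP1. An element lay in its body. There H3K27Ac (chr4:88937684-88940924) had a score of 1780, H3K4me1 (chr4:88936999-88941293) a score of 368 and FAIRE (chr4:88938770-88940070) a height of 92.1, centred 38.6 kb to 38.9 kb from that start. Peak lists do not say which gene such an element serves.

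TNC encodes tenascin C, an extracellular matrix glycoprotein found in metastatic niches. Its canonical start lay under H3K4me3 (2350, chr9:117878252-117881755), H3K27Ac (2630), H3K4me1 (295) and FAIRE (64.5), and another FAIRE peak, of height 92.9, lay 680 bp upstream of it. The H3K27Ac peak, at chr9:117875985-117882221, was above 86.5% of its list. TNC was the gene of the 9 with the most peaks in its window in the H3K4me1 and FAIRE lists, 11 and 19, or 5.54 and 9.57 per 100 kb, above 99.3% and 99.2% of coding genes. The TNC window is also the longest of the 9, at 198633 bp, hence the numbers per 100 kb.

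The TNC elements lay on both sides of the promoter. Within the gene, an H3K4me1 peak of 7854 bp at chr9:117865250-117873103 had a score of 736, above 98.4% of its list, with H3K27Ac of 1037 and FAIRE heights of 47.0 and 42.5. Upstream, 3 elements centred near 28.7 kb, 39.0 kb and 46.8 kb had H3K27Ac scores of 346, 1695 and 483 and a FAIRE peak each, above 80.8%, 90.1% and 98.2% of the FAIRE list. The last of these, at chr9:117926319-117927610, had a height of 152 and was centred 46.5 kb from the nearest start. Beyond the end of the gene, the 4 H3K4me1 peaks of the window, with scores of 52.6 to 298, all met FAIRE and none met H3K27Ac. Of the 15 start sites of TNC, 6 were bare, all of them internal. A single H3K4me3 peak was found in the whole window, at the promoter.

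CXCR4 encodes the receptor for the chemokine CXCL12, which is made in bone marrow and lung. All 6 of its start sites had the same H3K4me3 peak within 1 kb, at chr2:136873443-136876305, with a score of 3100 and a width of 2863 bp. No H3K27Ac, H3K4me1 or FAIRE peak met the promoter, so CXCR4 was marked by H3K4me3 alone. The noncoding gene ENSG00000289974, chosen after its values were seen, also starts under this peak, and the list cannot tell its promoter from that of CXCR4. The nearest H3K27Ac peak was 10597 bp from the canonical start, with a score of 127, at chr2:136886316-136888398, and overlapped H3K4me1 scored at 60.6. Further upstream, H3K4me1 (159, chr2:136893262-136896542) and FAIRE (36.6, chr2:136895537-136896189) met, centred 18.2 kb and 19.1 kb from the nearest start. That FAIRE peak was lower than all but 9.46% of the list.

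IL13RA2 encodes a receptor for interleukin 13 with a short cytoplasmic tail, long regarded as a decoy. None of its 3 start sites met a peak, and its window held no histone peak at all, as for 9.17% of coding genes. The nearest H3K4me3 peak was 180500 bp from the canonical start and the nearest H3K27Ac peak 326815 bp. The single peak of the window was a FAIRE peak at chrX:114257233-114258413 with a height of 37.3, above 10.3% of the list, centred 3.28 kb upstream of the most upstream start. It remained bare under each of the 8 other settings tried for promoter states.

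VCAM1 encodes an adhesion molecule of activated endothelium that binds alpha 4 integrins on leukocytes. Its canonical start and the 2 others beside it met no peak. It was marked through a start 15433 bp downstream that belongs to a transcript with a retained intron, where H3K27Ac (576), H3K4me1 (118, chr1:101199597-101201722) and FAIRE (56.5) met without H3K4me3. With start sites of protein-coding transcripts alone, VCAM1 was bare. An acetylated, open element with H3K27Ac of 745 and FAIRE of 58.3 lay upstream, 4045 bp from the canonical start at its near edge. At the far edge of the window, 50.7 kb to 51.2 kb from the nearest start, all 4 lists had a peak, at no annotated start site. H3K27Ac (chr1:101250207-101252571) had a score of 1031 there, H3K4me3 (chr1:101250902-101252074) of 299 and H3K4me1 of 93.1, and FAIRE (chr1:101250865-101252667) had a height of 75.

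FSCN1 encodes fascin, which bundles actin filaments in the protrusions of migrating cells. Its H3K4me3 peak at chr7:5630575-5636909 had a score of 3100 and was 6335 bp wide, wider than the promoter peak of 97.9% of the 13532 coding genes with H3K4me3. The H3K4me3 peaks of the other 5 genes were 2345 bp to 3504 bp wide, against a median of 2973 bp. H3K27Ac covered the FSCN1 promoter in 2 peaks with scores of 982 and 1616, and a low FAIRE peak (52.0) lay 927 bp upstream of the canonical start.

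Upstream of FSCN1, the window reached into the annotated bounds of ACTB, the cytoplasmic beta actin gene. Within 1 kb of an annotated start site of ACTB lay H3K4me3 of 2422 (chr7:5601075-5604121) and H3K27Ac of 402. Whether that start is the main one of ACTB was not examined. The highest H3K27Ac score of the FSCN1 window, 2350, lay in the annotated bounds of ACTB at chr7:5592482-5598821, 36.8 kb from the nearest start of FSCN1. That peak met an H3K4me3 peak of 2750 at chr7:5594014-5598369, and both met a start site of a noncoding gene. The tallest FAIRE peak of the window, of 77.6 at chr7:5588620-5589549, lay in the bounds of ACTB too, at 43.4 kb. An H3K4me3 peak of 3100 at chr7:5608858-5610976, 22.5 kb away, met no annotated start site. Downstream, H3K4me1 (246, chr7:5680511-5684385), H3K27Ac (123) and FAIRE (43.8) met in the body of RNF216, centred 39.3 kb to 39.9 kb from the nearest start. That was the single H3K4me1 peak of the window.

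**Figure D2:**
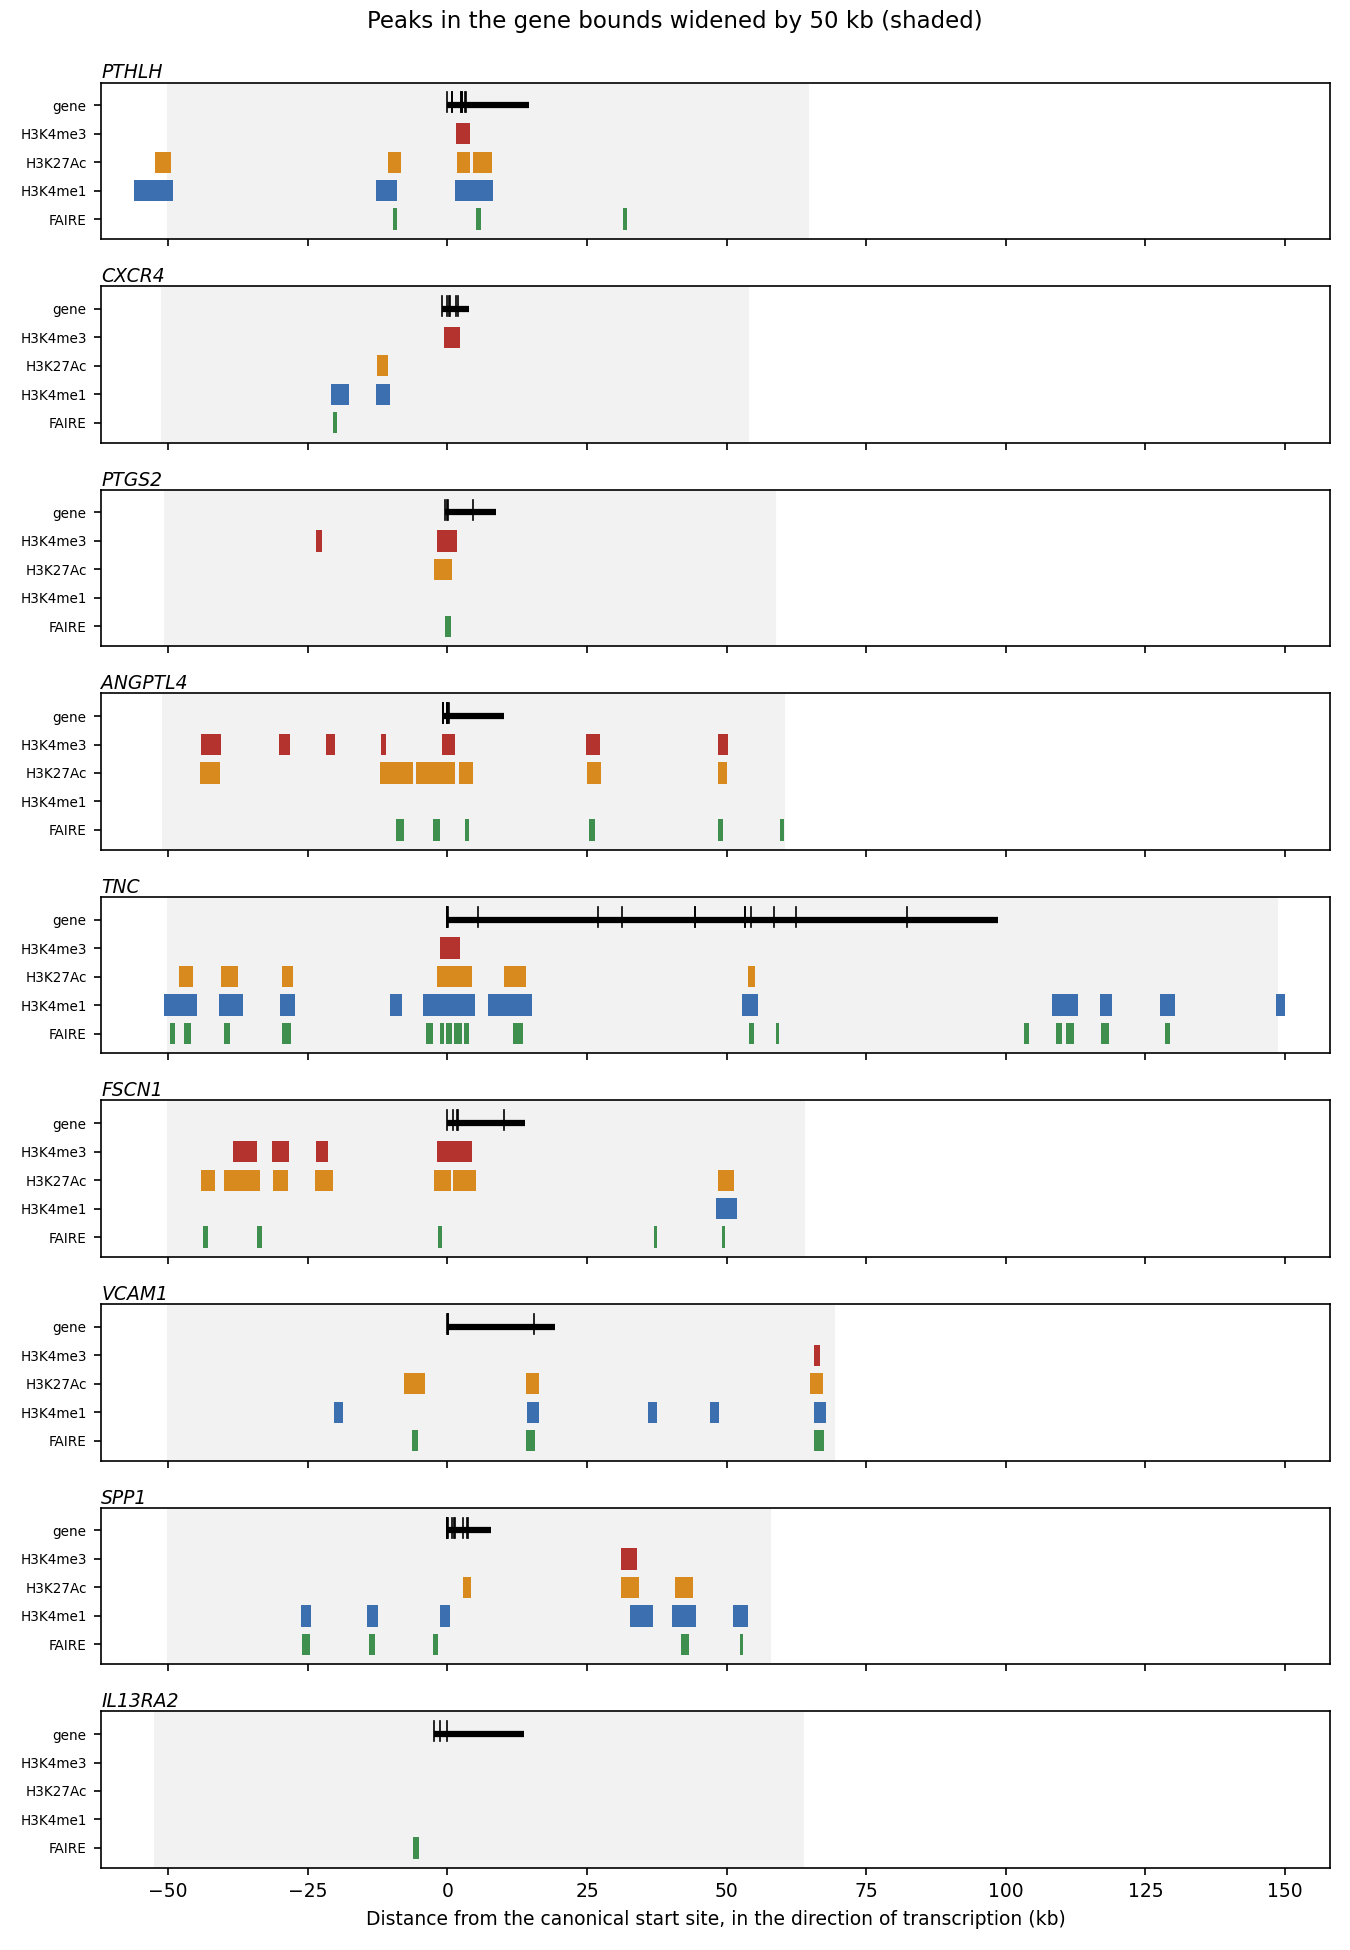
Peaks of the 4 lists in the gene bounds widened by 50 kb (shaded), by distance from the canonical start site in the direction of transcription, in kb. Black bars are gene bodies and ticks are annotated start sites; TNC has 11 H3K4me1 and 19 FAIRE peaks, and IL13RA2 has a single FAIRE peak.

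In all, the 9 windows held 19 H3K4me3, 31 H3K27Ac, 28 H3K4me1 and 44 FAIRE peaks, 122 of the 128837 peaks of the 4 lists. At least 1 H3K4me3 peak lay in the windows of 8 genes (85.4% of all coding genes), at least 1 H3K27Ac peak in those of 8 (86.7%), at least 1 H3K4me1 peak in those of 6 (62.7%) and at least 1 FAIRE peak in all 9 (85.1%). The median coding gene had 2, 3, 1 and 3 peaks of these lists in its window.

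**Figure D3:**
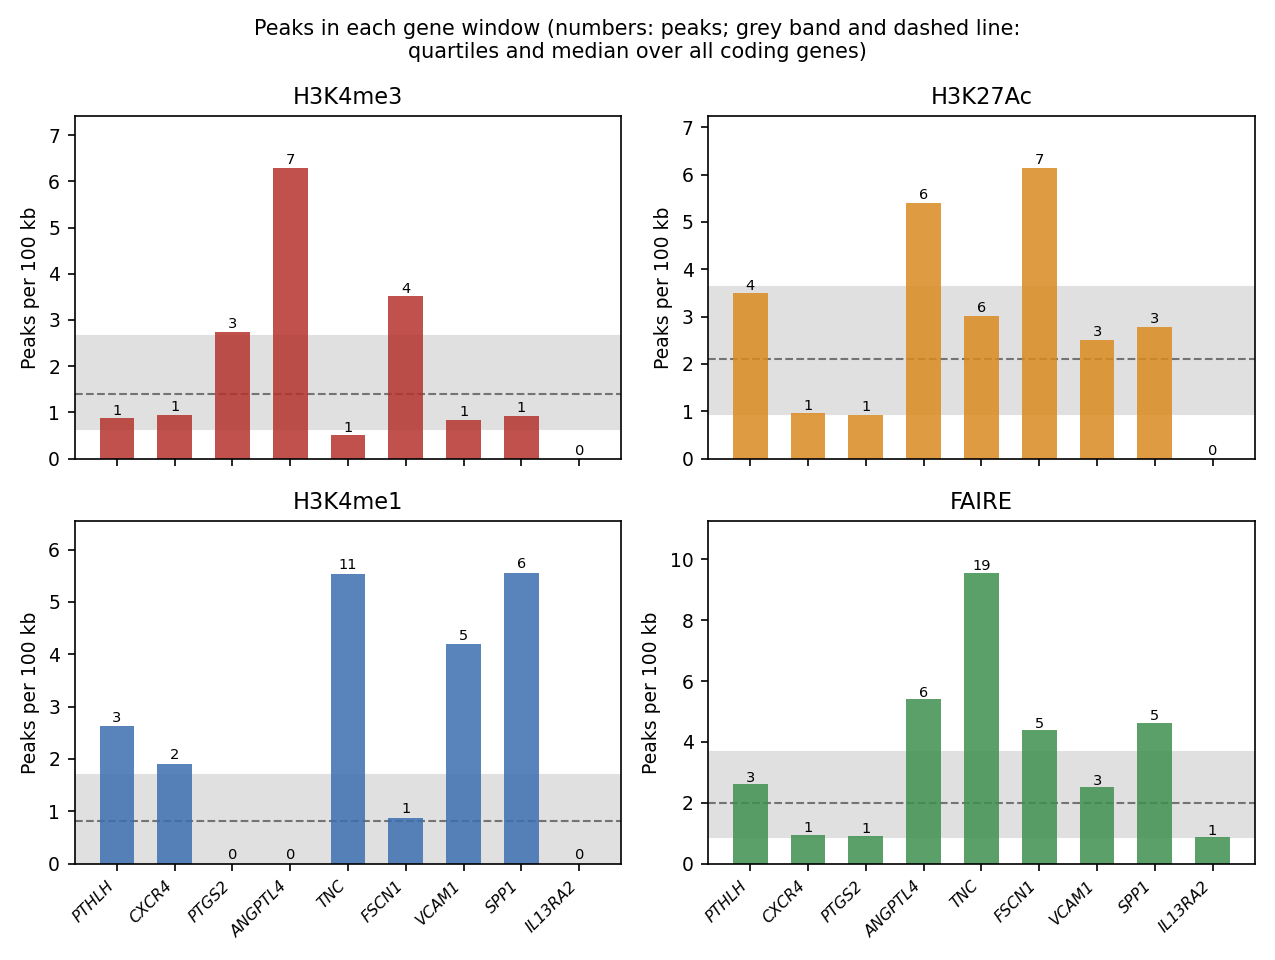
Peaks per 100 kb of each gene window, in 1 panel per list, with the number of peaks above each bar and the median and quartiles over all coding genes as a dashed line and a grey band. TNC (11) and SPP1 (6) have the highest H3K4me1 densities and PTGS2, ANGPTL4 and IL13RA2 have no H3K4me1 peak.

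Peaks of H3K4me1 without H3K4me3 were sorted by acetylation and accessibility, since acetylated and open sites are the usual form of an active enhancer. Of the 24 such peaks in the windows, 10 met both H3K27Ac and FAIRE, against 59.5% of the 22586 on these chromosomes. FAIRE without H3K27Ac was found at 8 (13.3% of all), H3K27Ac without FAIRE at 1 (11.1%) and neither at 5 (16.2%). The peaks with both were 5 at TNC, 2 at PTHLH and 1 each at VCAM1, SPP1 and FSCN1. Open peaks without acetylation were 4 at TNC, 3 at SPP1 and 1 at CXCR4. At VCAM1, 3 of the H3K4me1 peaks had neither, with scores of 50.8 to 60.2, close to the lowest of the list.

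A feature the rule did not use is CpG content. It was measured as observed over expected CpG within 500 bases of the canonical start. Over all coding genes its median was 0.786 at the 13170 marked starts, 0.25 at the 146 primed starts and 0.3 at the 6501 bare starts. The 5 genes marked at the canonical start had values of 0.566 (TNC), 0.747 (CXCR4), 0.778 (PTGS2), 0.786 (ANGPTL4) and 0.861 (FSCN1). The other 4 were lower, at 0.095 (PTHLH), 0.263 (VCAM1), 0.312 (SPP1) and 0.555 (IL13RA2). The value of IL13RA2 was close to that of TNC and above 71.8% of bare starts. At the RefSeq start of PTHLH, under the H3K4me3 peak, the value was 0.902.

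**Figure D4:**
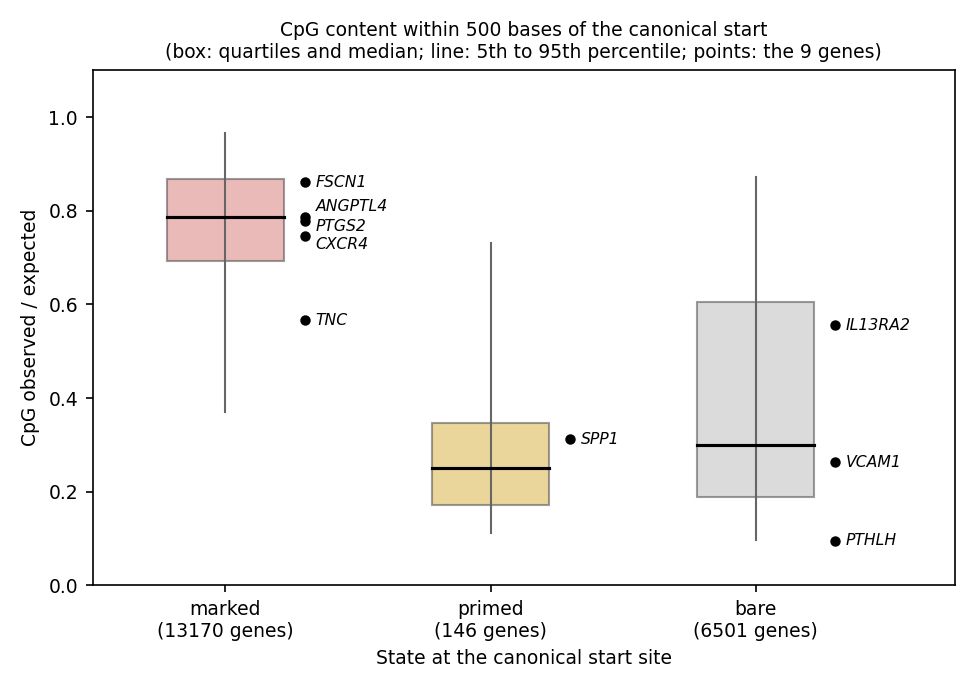
Observed over expected CpG within 500 bases of the canonical start, by the state of that start, with boxes for the quartiles and median over coding genes, lines for the 5th to the 95th percentile, and points for the 9 genes. The marked genes sit between 0.566 and 0.861, PTHLH, VCAM1 and SPP1 between 0.095 and 0.312, and IL13RA2, which is bare, at 0.555 beside TNC.

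Other genes tied to metastasis were described by the same rule, under which 69.5% of all coding genes were marked, 1.19% primed and 29.3% bare. In a lung metastasis list of 11 genes, 8 were marked (LTBP1, ROBO1, CXCL1, EREG, SPARC, NEDD9, ADIRF and ID1), 2 were primed (the collagenase genes MMP1 and MMP2) and 1 was bare (KRT81). MMP1 and MMP2 were primed by FAIRE alone. ROBO1 and MMP2 were bare at the canonical start. In a bone metastasis list of 12 genes, 9 were marked (IL11, CCN2, FGF5, FST, ADAMTS1, JAG1, RUNX2, DKK1 and ITGB3), MMP1 was primed, and IBSP and TNFSF11 were bare. H3K4me3 together with H3K27Ac was found at 9 of the 12 genes of the bone list, 7 of the 11 of the lung list and 5 of the 9 genes described above, against 61.3% of all coding genes. The marked counts were close to the 69.5% of all coding genes and say nothing particular about the lists. The primed counts, 2 in the lung list and 1 in the bone list, were above the share of 1.19%. They rest on MMP1, which is in both lists, and MMP2, and no test was made.

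Among 19 partners and paralogs, 12 were marked and 7 were bare, against 69.5% and 29.3% of all coding genes. For the chemokine pair of CXCR4, both CXCL12 and the second receptor ACKR3 were bare. Of the prostaglandin genes, PTGER4 was marked with H3K27Ac, PTGES and PTGER2 had H3K4me3 without it, and PTGS1, the constitutive relative of PTGS2, was bare. ITGA4, the alpha chain that binds VCAM1, was bare, while ITGB1 had all 4 marks; CD44 and ITGAV, through which osteopontin binds, were marked. The receptor chains IL13RA1 and IL4R were marked and IL13 was bare. PTH1R, LPL, ITGA9 and FSCN2 were marked, PTH1R not at its canonical start, and PTH and FSCN3 were bare.

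**Figure D5:**
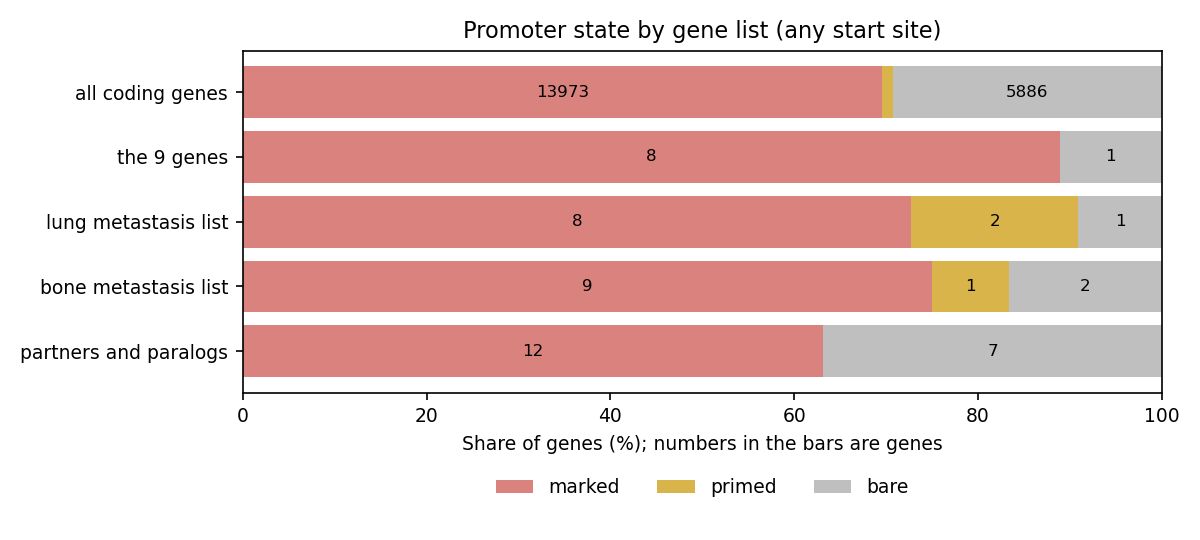
Share of genes with a marked, primed or bare promoter at any start site, in percent, for all coding genes, the 9 genes and the 3 lists, with the number of genes in the bars. The 9 genes have 8 marked and 1 bare, and the lung list has 2 primed.

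The line was checked against marker genes. All 6 genes typical of basal B breast lines (VIM, ZEB1, AXL, CAV1, CD44 and FOSL1) had H3K4me3 and H3K27Ac at the promoter. The luminal genes ESR1 and PGR had H3K4me3 alone, FOXA1 had H3K4me3 with FAIRE and no H3K27Ac, GATA3 had H3K4me3 and H3K27Ac, and TFF1 had H3K27Ac, H3K4me1 and FAIRE. The epithelial adhesion genes CDH1, EPCAM and CLDN7 were marked, CDH1 without H3K4me3. The blood genes PTPRC and CD3E and the endothelial gene CDH5 were bare, and PECAM1 was not in the annotation used. By the rule used here all 6 basal, all 5 luminal and all 3 epithelial genes were marked, against 69.5% of all coding genes, so the marked state did not separate them. At the canonical start GATA3 and CDH1 were bare and the other genes of these 3 lists were marked. H3K4me3 was found at 6 of 6 basal, 4 of 5 luminal and 2 of 3 epithelial genes (67.3% of all coding genes), and H3K27Ac at 6 of 6, 2 of 5 and 3 of 3 (63.5%).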

How the data were processed

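The authors aligned reads to GRCh37 (hg19) with BWA 0.6.1, removed duplicates and reads under a mapping quality of 30, and combined the 2 samples of each assay. Histone peaks are from MACS and FAIRE peaks from FindPeaks 4.0, each against input. The deposited histone score is the log10 of the p-value from MACS multiplied by minus 10, and the p threshold was 1e-05. The deposited FAIRE value is a signal height whose scaling is not stated. BED starts were counted from 0 and are printed from 1.

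A shared base made an overlap. Counts were made in numpy 2.4.6 and pandas 2.3.3 and tested on simulated data against bedtools 2.31.1, with 0 of 3000 windows differing. Figures were drawn with matplotlib 3.10.9. Windows are gene bounds widened by 50 kb. Named genes are the 9 genes, every coding gene whose promoter meets a peak in a window, with the position of the highest peak of each list in a window, and the lung, bone, partner and marker lists. One marker gene is not reported here. Members and lists were chosen with earlier results of these data known. Lists were described by counts with no test, since each assay has 1 list. Alternatives were other promoter and window sizes, protein-coding transcripts, stricter peaks and peak centres, and, chosen after seeing the data, canonical starts, H3K4me3 needed for a marked promoter, and joined FAIRE peaks.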

Additional observations from a re-analysis of the deposited data

How the results depend on the processing

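The number of marked genes was 6 to 8 under the alternatives set for it, against 8. With the canonical start site alone, chosen after seeing the data, 5 genes were marked, 1 was primed and 3 were bare (66.5%, 0.737% and 32.8% of all coding genes). With start sites of protein-coding transcripts, 1 gene was primed and 2 were bare (0.936% and 30.7%). With histone peaks of MACS p at or under 1e-10, 2 were bare (30.1%). When H3K4me3 was needed for a marked promoter, also chosen after seeing the data, 2 genes were primed (3.38%). As reported, 1.19% of all coding genes were primed and 29.3% bare. CXCR4, PTGS2, ANGPTL4, TNC, FSCN1 and IL13RA2, 6 of the 9, had the same state under all 8 settings.

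Window counts followed the window, by its construction. With 20 kb they were 15 H3K4me1, 10 H3K4me3, 17 H3K27Ac and 29 FAIRE peaks, and with 100 kb there were 48 H3K27Ac and 67 FAIRE peaks. Stricter thresholds left 16 H3K4me1 peaks (p at or under 1e-10) and 24 FAIRE peaks (no lower than the list median). Joining FAIRE peaks that touch, added after seeing the data, left 42. Of 40 alternative values, 25 were within 1.5 times the value reported.

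No paired analysis was possible because the samples of an assay were combined into 1 list by the authors. No sample was left out for the same reason. The files give no depth, so a bare promoter means no called peak and not absence of the mark.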
